A study of Homo sapiens with 36 samples.

Results

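MAP kinase feedback genes are genes whose transcription follows signalling through the extracellular signal-regulated kinases (ERK), and most of whose products then restrain that signalling. The set held 10 genes, taken from 20046 genes that had an array probe annotated to 1 gene, and comprised the Sprouty genes SPRY1, SPRY2 and SPRY4, the related SPRED1 and SPRED2, the phosphatase genes DUSP4 and DUSP6, PHLDA1, and the ETS factor genes ETV4 and ETV5. Members were chosen by symbol for their place in the pathway, and the probe with the highest mean log2 intensity stood for each gene. Expression was measured on Illumina HumanHT-12 arrays in LNCaP, an androgen-dependent human prostate cancer cell line, and in c42b, a castration-resistant line derived from LNCaP. Cells of each line carried 1 of 4 vectors. These were a short hairpin against GABPA (shGA), a non-targeting hairpin (NT), a vector labelled as overexpressing GABPA (GABPa) and its empty vector (EV). GABPA encodes the subunit through which GABP, a transcription factor of the ETS family, binds DNA. Every culture spent 48 h in charcoal-stripped serum and then received 1 nM R1881, a synthetic androgen, or the same volume of ethanol as vehicle. The 32 samples fell into 16 groups of 2. The labels name pLVX as the backbone of the EV and GABPa cells, whereas the study's methods give pLVX to the knockdown cells, and a figure legend describes the overexpression as doxycycline-inducible. Whether doxycycline was given to the arrayed cells, and whether the arrayed cells of a vector were 1 clone or a pool, is not given in the sources used here, although a legend on xenografts speaks of shRNA clones.

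In the pathway, growth factor receptors activate Ras through adaptor proteins, and Ras activates the kinases Raf, MEK and ERK in turn. ERK phosphorylates transcription factors of the ETS family, among others, and induces genes that act back on the pathway at several levels. Sprouty and SPRED proteins act near the membrane between the receptor and Raf, and DUSP4 and DUSP6 remove the activating phosphates from ERK itself. The transcripts of such genes are widely read as a measure of ERK output in tumour cells.

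The vectors and the androgen were checked first. The GABPA probe was lower in shGA than in NT cells by 0.46 log2 in c42b (standard error, SE, 0.11, limma adjusted p = 0.0215), and differed by -0.38 in LNCaP (adjusted p = 0.101). GABPB1, the gene of the other GABP subunit, was higher in shGA cells by 1.02 log2 in LNCaP (adjusted p = 1.91e-09) and 0.95 in c42b (9.7e-09). In the cells labelled GABPa the GABPA probe differed from EV cells by -0.05 log2 in LNCaP and 0.03 in c42b, and neither difference was called (adjusted p = 0.956 and 0.978). Their means of 8.13 and 7.88 log2 in LNCaP and 8.24 and 8.12 in c42b, with R1881 and with vehicle, stood beside 8.02, 8.10, 8.22 and 8.08 in EV cells. All 5 androgen-induced check genes rose with R1881 in both lines. Of the luminal prostate markers, 7 of 7 measured lay above background, and the basal keratins KRT5 and KRT14 lay below it. Fibroblast and leukocyte markers lay near background, with 2 of 4 and 1 of 3 above it, and mean levels from 6.80 (CD3E) to 7.99 log2 (COL1A1). On the second principal component, EV and GABPa cells of both lines separated from NT and shGA cells. The 4 arrays that repeated a sample were averaged with it.

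Most of the 10 genes gave dim signals. The background level was set at 7.80 log2, the 95th percentile of the mean levels of 371 olfactory receptor genes, and 48.3% of all genes lay above it. SPRY1 (mean 8.90 log2 over the 32 samples), PHLDA1 (8.90), SPRED1 (8.79) and SPRED2 (7.88) lay above it. SPRY4 (7.78), ETV4 (7.60), DUSP6 (7.41), DUSP4 (7.31), SPRY2 (7.20) and ETV5 (6.91) lay below it, so that differences in these 6 genes may be understated. No gene was filtered out, and all 10 were tested. The 16 group means of PHLDA1 spanned 2.62 log2, those of SPRED1 1.22 and those of SPRY2 1.01. For the other 7 genes this span ran from 0.28 (SPRY4) to 0.61 log2 (DUSP4), against a standard deviation within groups of 0.08 to 0.19 log2.

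**Figure D1:**
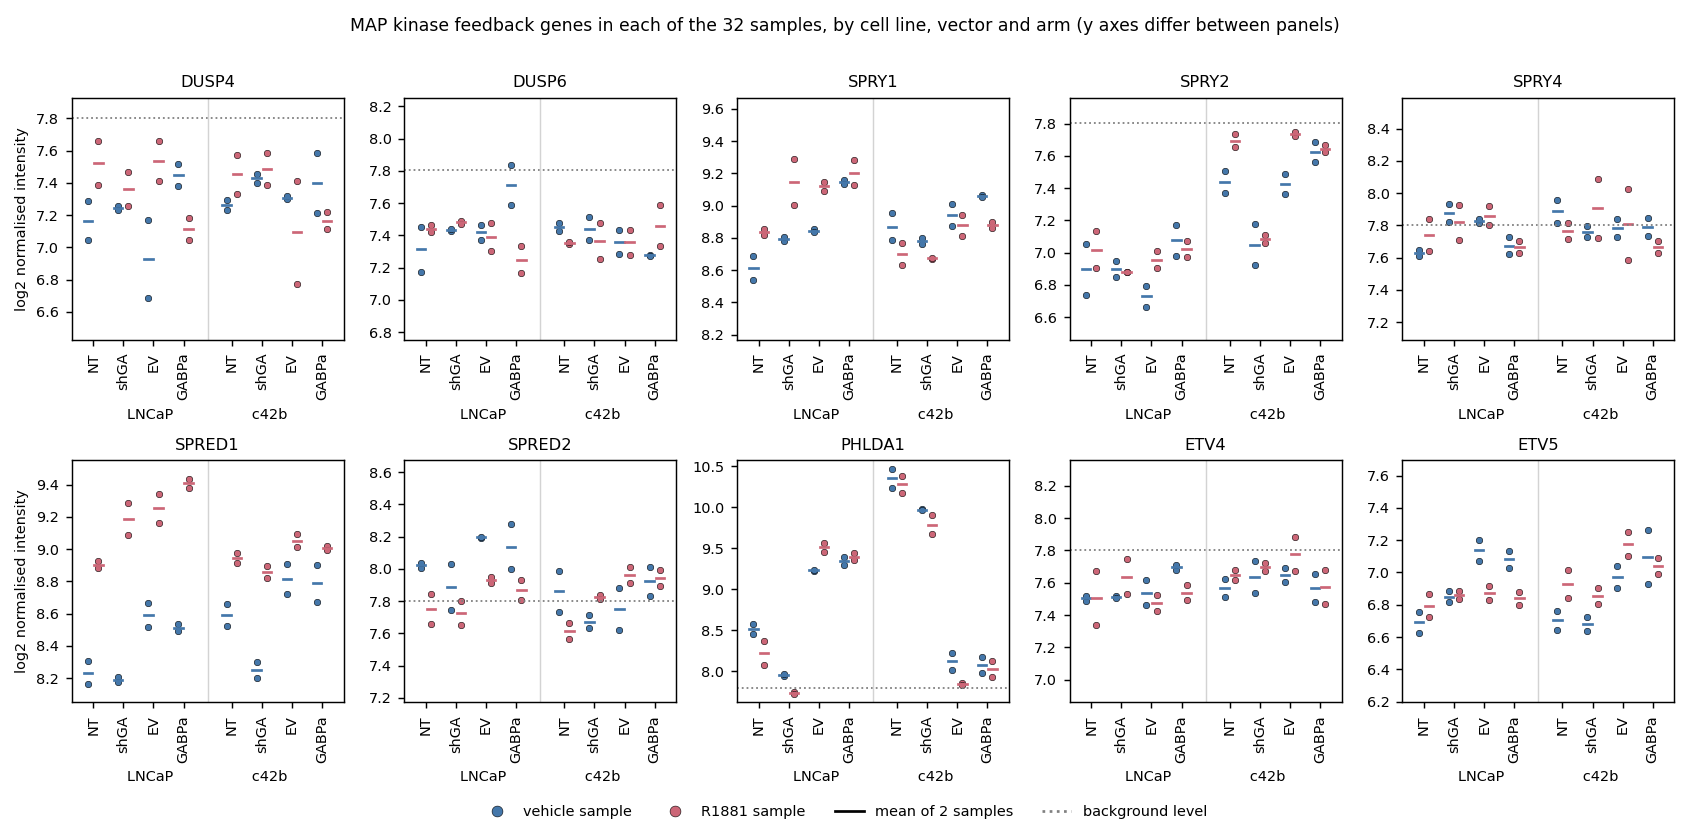
Level of each of the 10 genes (y axis, log2 normalised intensity; the range differs between panels) in each sample (points) by cell line and vector (x axis), with vehicle in blue and R1881 in red; short lines are means of 2 samples and the dotted line is the background level of 7.80 log2. PHLDA1 spanned 2.62 log2 between its highest and lowest group means, SPRED1 was higher with R1881 in every vector, and SPRY2 was higher in c42b NT, EV and GABPa cells than in every LNCaP sample.

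Each vector was compared with its own control over both arms, and R1881 with vehicle over the NT and EV cells, with 4 samples on each side. Knockdown here names the comparison of shGA with NT cells. An effect of GABPA loss cannot be told apart in it from other differences between these vectors or clones. A gene was called at an adjusted p under 0.05. R1881 raised 2 of the 10 genes in LNCaP, DUSP4 and SPRED1, and lowered none, where 2.97% of all genes were called (1.65% higher, 1.32% lower). In c42b R1881 changed none of the 10, against 1.55% of all genes, although 3 had an unadjusted p under 0.05 (SPRED1, SPRY2 and ETV5, all higher). With knockdown 1 gene was lower in LNCaP, PHLDA1, where 2.46% of all genes were called (1.2% lower). In c42b 2 genes were lower, PHLDA1 and SPRY2, where 3.25% were called (1.53% lower). The cells labelled GABPa differed from EV cells in none of the 10 genes in either line, where 0.0449% of all genes were called in LNCaP and 0.15% in c42b; at an unadjusted p under 0.05, SPRY1 and SPRY2 were higher in LNCaP and no gene passed in c42b. Between the lines, the control cells of c42b were higher than those of LNCaP in SPRY2 and PHLDA1 and lower in SPRED2, 3 of 10 genes against 28.6% of all genes. EV cells were higher than NT cells in 4 genes in LNCaP (PHLDA1, SPRED1, SPRY1 and ETV5), against 11.9% of all genes called (6.17% higher), and lower in 1 gene in c42b (PHLDA1), against 18% (8.43% lower). The comparisons within a line share samples, since NT and EV cells serve as controls in several of them.

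The median differences of the 10 genes were small in every comparison. With R1881 the median was 0.06 log2 in LNCaP and -0.02 in c42b, beside -0.01 and -0.004 over all genes. With knockdown it was 0.07 in LNCaP and -0.02 in c42b, beside 0.004 over all genes in both lines. For EV against NT cells it was 0.17 in LNCaP and 0.06 in c42b, beside 0.005 and 0.01. Samples of the compared sides did not overlap in 3 of the 10 genes with R1881 in LNCaP (6.31% of all genes), 2 in c42b (3.74%), 1 with knockdown in LNCaP (7.15%) and 2 in c42b (10.7%).

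**Figure D2:**
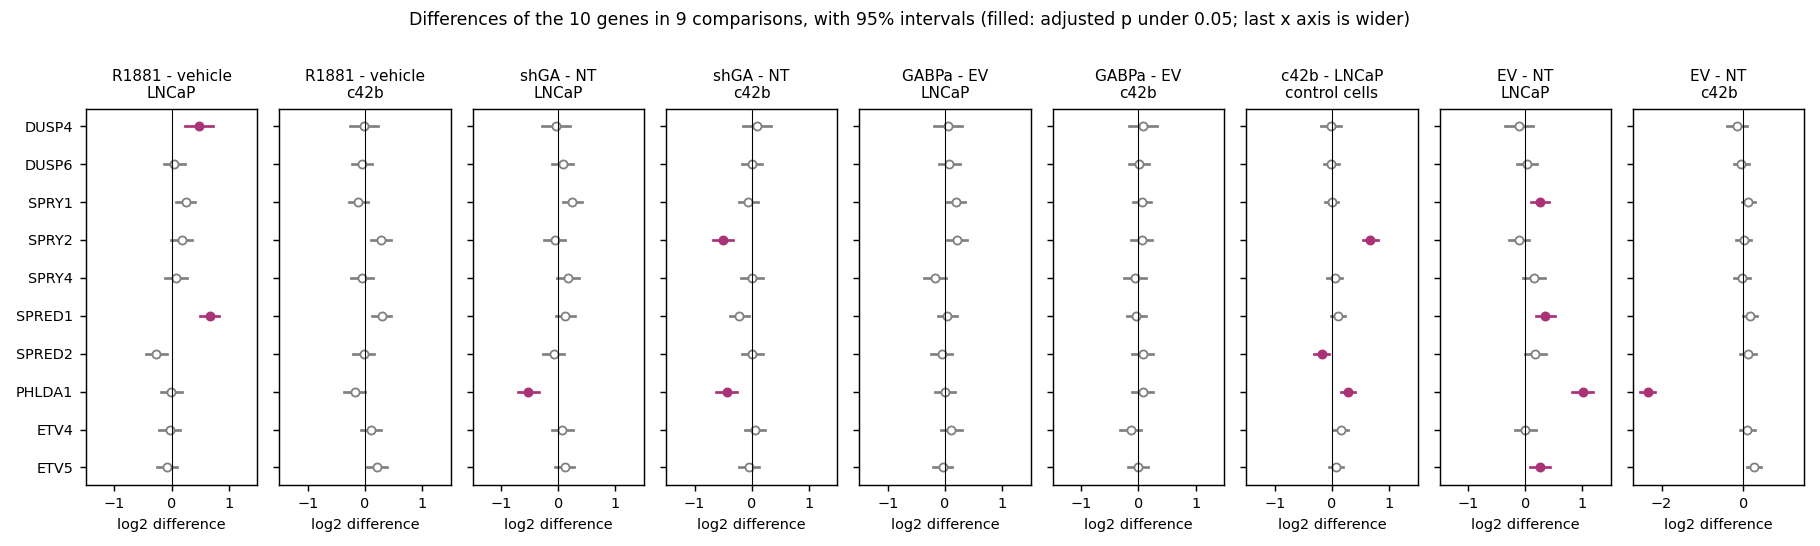
Difference of each of the 10 genes (rows) in 9 comparisons (panels), in log2 (x axis; the last panel is wider), as points with 95% intervals; filled points were called at an adjusted p under 0.05. The widest differences were those of PHLDA1 between EV and NT cells, 1.00 in LNCaP and -2.34 in c42b.

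SPRED1 binds neurofibromin and brings this Ras inactivator to the membrane. It was the member with the clearest androgen response. In LNCaP vehicle samples SPRED1 read 8.16 and 8.31 log2 in NT, 8.52 and 8.67 in EV, 8.21 and 8.17 in shGA and 8.49 and 8.53 in GABPa cells. With R1881 it read 8.92 and 8.88 in NT, 9.34 and 9.16 in EV, 9.29 and 9.09 in shGA and 9.38 and 9.44 in GABPa cells. Every LNCaP sample with R1881 therefore lay above every LNCaP sample with vehicle. Over the control vectors the rise was 0.67 log2 (1.59-fold, SE 0.08, adjusted p = 3.12e-06), with 0.67 in NT and 0.66 in EV cells. The shGA and GABPa cells, which did not enter that test, rose by 1.00 and 0.90 log2.

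In c42b SPRED1 read 8.66 and 8.52 log2 in NT and 8.91 and 8.72 in EV cells with vehicle, and 8.98 and 8.91 in NT and 9.01 and 9.09 in EV cells with R1881. The arms did not overlap over these cells, but the difference of 0.29 log2 (95% interval 0.13 to 0.46) was not called (adjusted p = 0.0811). It was called when only probes above background were tested (adjusted p = 0.0106). Within vectors it was 0.35 in NT, 0.24 in EV, 0.61 in shGA and 0.22 in GABPa cells. The difference between the lines in this response was -0.37 log2 (95% interval -0.61 to -0.14), with an adjusted p of 0.163 in the fit over all probes, which called 0.549% of all genes, and 0.0279 over probes above background alone. With knockdown the R1881 response was larger than in NT cells by 0.33 log2 in LNCaP and 0.25 in c42b, and neither difference was called (adjusted p = 0.811 and 0.883, with 0.02% and 0.00499% of all genes called). Knockdown itself gave differences of 0.12 in LNCaP and -0.21 in c42b (adjusted p = 0.761 and 0.348). SPRED1 was also higher in EV than in NT cells of LNCaP, by 0.35 log2 (SE 0.08, adjusted p = 0.00298), and by 0.17 in c42b, which was not called (adjusted p = 0.256). With either arm alone the LNCaP difference was 0.35 and 0.36 log2 and was no longer called (adjusted p = 0.0593 with R1881, 0.0533 with vehicle). Ordered by group mean, SPRED1 was highest in LNCaP GABPa cells with R1881 (9.41), above every other group without overlap, and lowest in LNCaP shGA cells with vehicle (8.19), which overlapped LNCaP NT cells with vehicle (8.24).

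Among 9673 other genes above background, the levels most like those of SPRED1 over the 32 samples were those of TMPRSS2 (Pearson r = 0.90) and LRIG1 (r = 0.87). TMPRSS2 is an androgen-induced serine protease gene and one of the check genes, and LRIG1 encodes an inhibitor of the epidermal growth factor receptor family. These 32 samples share cell lines, vectors and arms, so that they are not independent points.

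SPRED2, the paralogue of SPRED1, did not follow it. In LNCaP it read 8.01 and 8.04 log2 in NT and 8.19 and 8.20 in EV cells with vehicle, and 7.84 and 7.66 in NT and 7.92 and 7.95 in EV cells with R1881. The arms did not overlap, with the R1881 samples lower, but the difference of -0.27 (95% interval -0.45 to -0.08) was not called (adjusted p = 0.231). In c42b it was -0.24 in NT and 0.21 in EV cells, and -0.02 over both (adjusted p = 0.986). In control cells SPRED2 ranged from 7.57 to 8.01 log2 around a median of 7.81 in c42b and from 7.66 to 8.20 around 7.98 in LNCaP. It was lower in c42b by 0.18 log2 (SE 0.06, adjusted p = 0.0489), with overlapping samples. That call was lost when 1 sample was left out in 13 of 16 cases (adjusted p from 0.0518 to 0.152). It remained without replicate 2 of the NT vehicle cells of c42b (0.0241), replicate 1 of their EV vehicle cells (0.0226) or replicate 2 of the NT cells of LNCaP with R1881 (0.0358). The genes most like SPRED2 over the 32 samples were PRKAA1, a catalytic subunit of AMP-activated kinase (r = 0.79), and PAK2, a p21-activated kinase (r = 0.77).

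**Figure D3:**
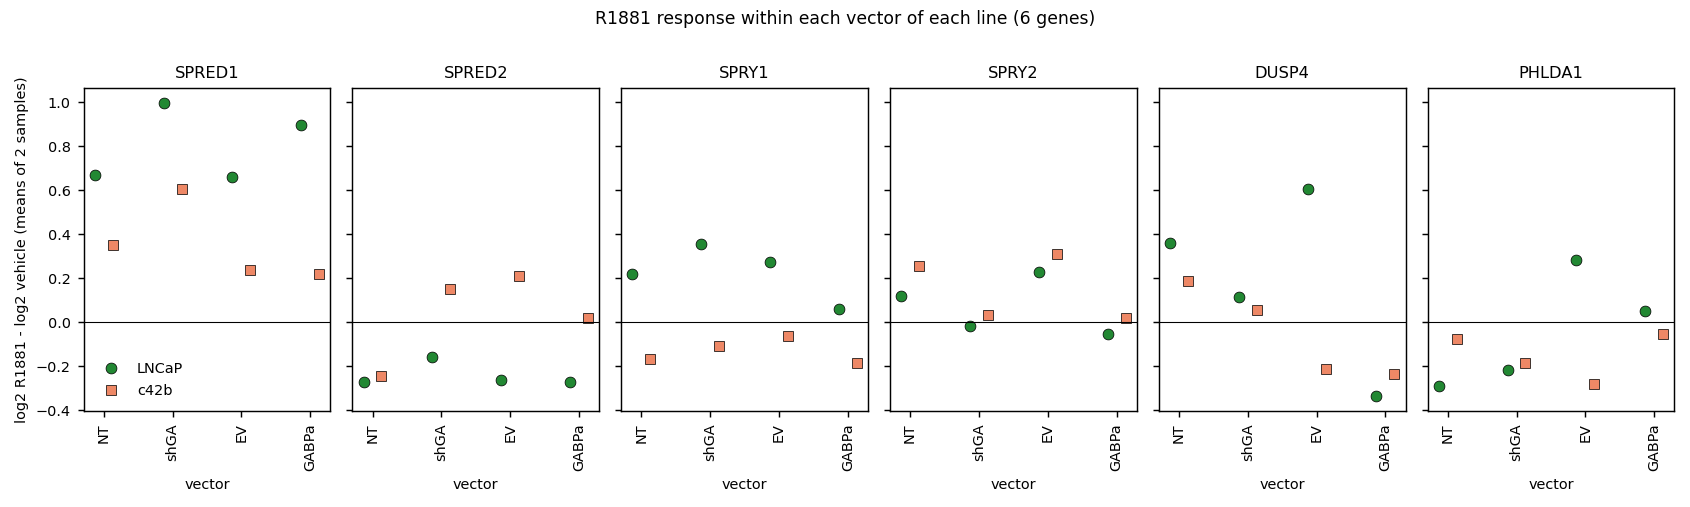
R1881 response of 6 genes within each vector (x axis) of LNCaP (green circles) and c42b (orange squares), as the log2 mean with R1881 minus the log2 mean with vehicle (y axis; 2 samples in each mean). SPRED1 lay above 0 in all vectors of both lines, from 0.22 to 1.00, whereas DUSP4 ran from -0.33 to 0.61 in LNCaP.

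SPRY2 encodes a Sprouty protein, which interferes with signalling between receptor and Raf. It differed between the lines and fell with knockdown in c42b. All its samples lay below background, and the array held 1 probe for it. In LNCaP it ranged from 6.67 to 7.17 log2 over all 16 samples, with means of 6.96 ± 0.17 (SD, n = 4) in NT, 6.84 ± 0.15 in EV, 6.89 ± 0.04 in shGA and 7.05 ± 0.09 in GABPa cells. Control cells of c42b ranged from 7.36 to 7.75 log2, above all LNCaP samples, and the difference was 0.67 log2 (1.59-fold, SE 0.06, adjusted p = 2.36e-10). Control samples of the lines did not overlap in this 1 member, against 7.86% of all genes. In c42b shGA cells SPRY2 read 7.11 and 7.06 log2 with R1881 and 6.92 and 7.17 with vehicle, below all 4 NT samples, which read 7.65, 7.74, 7.37 and 7.51. The fall was 0.50 log2 (1.41-fold, SE 0.09, adjusted p = 7.48e-04), to a mean of 7.07 ± 0.11, next to the 7.05 of LNCaP GABPa cells, whose samples it overlapped. The difference was -0.61 with R1881 alone and -0.39 with vehicle alone, where it was not called (adjusted p = 0.199). In LNCaP the difference with knockdown was -0.07 (adjusted p = 0.914), and the difference between the lines in the knockdown effect, -0.43 (95% interval -0.68 to -0.18), was not called (adjusted p = 0.324, with 0.958% of all genes called). With R1881, SPRY2 was higher in both control vectors of c42b without overlap of the arms, by 0.28 log2 (95% interval 0.11 to 0.46), but was not called (adjusted p = 0.15).

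SPRY1 lay above background, and its group means spanned 0.59 log2, against a standard deviation within groups of 0.08. Its means over 4 samples ran from 8.72 ± 0.14 log2 (SD) in LNCaP NT to 9.17 ± 0.07 in LNCaP GABPa cells, and each neighbour in the order of the 8 means overlapped the next. It was higher in EV than in NT cells of LNCaP by 0.26 log2 (SE 0.08, adjusted p = 0.0328). The call held when replicate 2 of the NT vehicle cells was left out (adjusted p = 0.0309) and was lost when any of the other 7 samples was (0.0587 to 0.141). With R1881 the difference was 0.25 in LNCaP (adjusted p = 0.188) and -0.11 in c42b (0.771), and the difference between the lines in this response was -0.36 (95% interval -0.59 to -0.13, adjusted p = 0.164). With knockdown it was 0.25 in LNCaP (adjusted p = 0.193). SPRY1 had 2 further probes. The first, at a mean of 8.44 log2, correlated with the probe in use at r = 0.52 over the 32 samples and differed by 0.14 between EV and NT cells of LNCaP (adjusted p = 0.454). It was lower in c42b control cells by 0.17 log2 (adjusted p = 0.0491), where the probe in use differed by -0.01. The second, at 7.81 log2, correlated at r = -0.20. The genes most like SPRY1 were AMY1A, an amylase gene (r = 0.76), and MIR29B2CHG, a microRNA host gene (r = 0.73). SPRY4, the remaining Sprouty member, ranged from 7.59 to 8.09 log2 and was called in none of the 9 comparisons, the smallest adjusted p being 0.388 for EV against NT cells of LNCaP (0.16 log2). In LNCaP GABPa against EV cells it differed by -0.18 log2 (adjusted p = 0.631), and the samples did not overlap (2.35% of all genes). Its other 3 probes correlated with the one in use at r = -0.16, -0.15 and 0.32.

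DUSP4, a nuclear phosphatase of ERK and other MAP kinases, rose with R1881 in LNCaP control cells. With vehicle it read 7.04 and 7.29 log2 in NT and 6.69 and 7.17 in EV cells, and with R1881 7.39 and 7.66 in NT and 7.66 and 7.41 in EV cells. The arms did not overlap, though all samples lay below background. The rise was 0.48 log2 (SE 0.12, adjusted p = 0.038). It was lost without replicate 2 of NT cells with R1881 (0.41, adjusted p = 0.214), replicate 1 of NT cells with vehicle (0.42, 0.199), replicate 1 of EV cells with R1881 (0.42, 0.196) or replicate 1 of EV cells with vehicle (0.36, 0.28). It was 0.36 in NT and 0.61 in EV cells, and neither was called alone (adjusted p = 0.566 and 0.0982). In GABPa cells of LNCaP the order was turned, with 7.52 and 7.38 log2 with vehicle and 7.18 and 7.04 with R1881. The response in those cells differed from that in EV cells by -0.94 log2 (95% interval -1.43 to -0.45), which was not called (adjusted p = 0.204), as was no gene of the array in that comparison (0% of all genes). In shGA cells the difference was 0.11, with overlapping arms. In c42b it was -0.01 (adjusted p = 0.992), and the difference between the lines was -0.50 (95% interval -0.84 to -0.15, adjusted p = 0.252). A second DUSP4 probe, at a mean of 6.93 log2, differed by 0.13 with R1881 in LNCaP (adjusted p = 0.816). DUSP6, a cytoplasmic phosphatase selective for ERK, ranged from 7.17 to 7.84 log2. Its differences in the 9 comparisons ran from -0.05 to 0.08 log2 and none was called. Both the highest and the lowest DUSP6 sample came from LNCaP GABPa cells, with 7.84 and 7.59 in vehicle and 7.33 and 7.17 in R1881 samples. A second DUSP6 probe, at a mean of 6.75 log2, correlated with the probe in use at r = -0.07. In c42b it differed by -0.20 with R1881 (adjusted p = 0.649) and by -0.22 in GABPa against EV cells (0.563). It was called in none of the 9 comparisons.

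PHLDA1, which encodes a pleckstrin homology-like protein whose transcript is induced by ERK, varied most. In c42b it read 10.47 and 10.24 log2 in NT cells with vehicle and 10.18 and 10.39 with R1881. In EV cells of c42b it read 8.02 and 8.22 with vehicle and 7.86 and 7.83 with R1881. EV against NT cells thus differed by -2.34 log2 (5.06-fold, SE 0.09, adjusted p = 8.75e-19), with no overlap, as in 21.2% of all genes. The GABPa cells of c42b, at 8.05 ± 0.12 log2 (SD, n = 4), were like EV cells (7.98 ± 0.18), and shGA cells, at 9.88 ± 0.14, stood below NT cells (10.32 ± 0.13) and far above both others.

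In LNCaP the order of EV and NT cells was the opposite. PHLDA1 read 8.58 and 8.46 log2 in NT cells with vehicle and 8.08 and 8.37 with R1881, and 9.23 and 9.24 in EV cells with vehicle and 9.46 and 9.57 with R1881. EV cells were higher by 1.00 log2 (SE 0.09, adjusted p = 5e-10), without overlap, as in 14.1% of all genes. The difference between EV and NT cells differed between the lines by -3.34 log2 (95% interval -3.60 to -3.09, adjusted p = 5.3e-17), in a comparison in which 5.82% of all genes were called. Control cells of c42b were higher than those of LNCaP by 0.28 log2 over both vectors (adjusted p = 9.33e-04). That value averaged opposite differences, 1.95 log2 among NT cells and -1.39 among EV cells.

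Ordered by mean over 4 samples, PHLDA1 was highest in NT cells of c42b, followed by their shGA cells, and then by GABPa and EV cells of LNCaP (both 9.37), which overlapped each other. The next 4 sets, NT cells of LNCaP (8.37), GABPa (8.05) and EV cells (7.98) of c42b and shGA cells of LNCaP (7.85), each overlapped the next.

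PHLDA1 was lower in shGA than in NT cells of both lines. NT and EV cells, both controls, differed by more in this gene, as given above. In LNCaP shGA cells it read 7.94 and 7.97 log2 with vehicle and 7.76 and 7.72 with R1881, below all NT samples, a fall by 0.52 log2 (1.44-fold, SE 0.09, adjusted p = 5.09e-04) to the background level. In c42b shGA cells it read 9.99 and 9.96 with vehicle and 9.90 and 9.68 with R1881, again below all NT samples, and fell by 0.44 log2 (1.36-fold, SE 0.09, adjusted p = 0.00464). The c42b call was lost without replicate 2 of NT cells with R1881 (-0.39, adjusted p = 0.0523), replicate 1 of NT cells with vehicle (-0.38, 0.055) or replicate 2 of shGA cells with R1881 (-0.38, 0.0519). With R1881 samples alone the difference was -0.49 in both lines and was not called (adjusted p = 0.0529 in LNCaP and 0.0518 in c42b), and with vehicle alone it was not called in c42b (-0.38, adjusted p = 0.229). The knockdown effect on PHLDA1 differed between the lines by 0.08 log2 (95% interval -0.17 to 0.34). No R1881 response of PHLDA1 was called in either line (-0.003 log2 in LNCaP and -0.18 in c42b, adjusted p = 0.998 and 0.585). In LNCaP it was -0.29 in NT and 0.28 in EV cells, a difference of 0.57 that was not called over all probes (adjusted p = 0.16, with 0.155% of all genes called).

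The vectors moved the other PHLDA1 probe far less. This second probe, at a mean of 7.38 log2 and thus below background, ranged from 7.07 to 7.64 over the 32 samples and correlated with the probe in use at r = 0.38. It differed by -0.11 between EV and NT cells of c42b (adjusted p = 0.618), by 0.09 in LNCaP (0.716), and by -0.03 and -0.09 with knockdown in LNCaP and c42b (0.979 and 0.884). The statements on PHLDA1 therefore rest on 1 probe. Among genes above background, C1QTNF9B, a gene of the C1q and tumour necrosis factor family (r = 0.87), and MAP3K20, which encodes a stress-activated MAP kinase kinase kinase (r = 0.86), had levels most like those of PHLDA1. C1QTNF9B averaged 9.67 and 9.88 log2 in NT cells of c42b, with vehicle and R1881, and 8.67 and 8.74 in EV cells. In LNCaP, where EV cells were higher in PHLDA1 by 1.00 log2, the likeness was weaker. There C1QTNF9B averaged 8.61 and 8.89 in NT and 8.95 and 8.96 in EV cells, with vehicle and R1881. MAP3K20 averaged 9.08 and 8.93 in NT and 9.08 and 8.96 in EV cells of LNCaP.

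**Figure D4:**
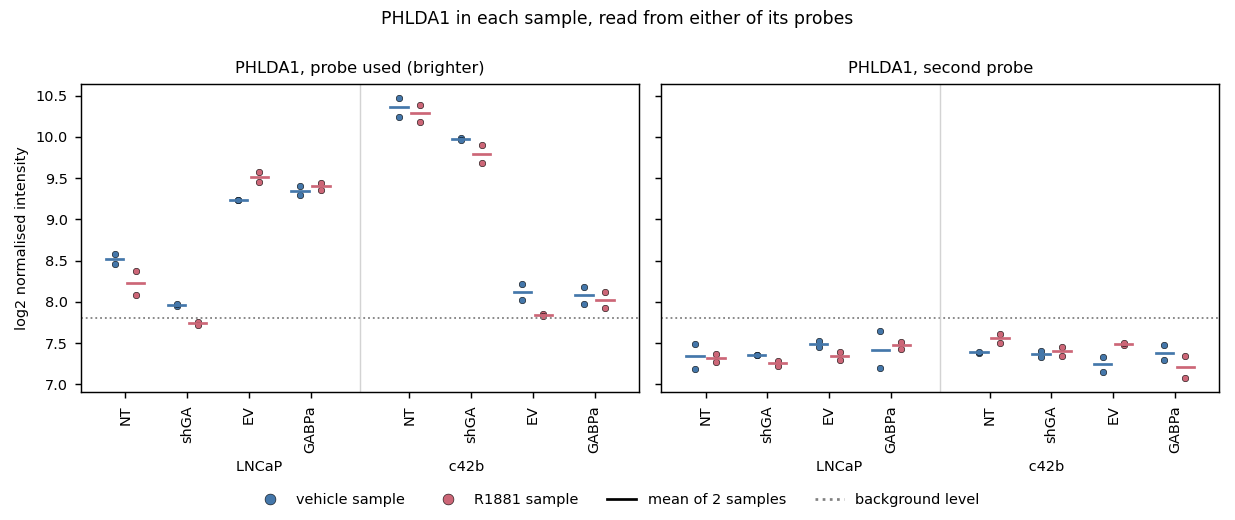
PHLDA1 in each sample (points) by cell line and vector (x axis), read from the brighter probe (left) and from the second probe (right), in log2 normalised intensity (y axis), with vehicle in blue and R1881 in red; short lines are means of 2 samples and the dotted line is the background level. On the left, NT cells averaged 10.32 and EV cells 7.98 log2 in c42b but 8.37 and 9.37 in LNCaP, whereas the second probe stayed between 7.07 and 7.64 in all samples.

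Because GABP binds ETS motifs, the stretches upstream of the genes that moved were read from RefSeq (GRCh38.p14). They are shown for PHLDA1 (chr12:76031777-76032026, minus strand) and SPRY2 (chr13:80341127-80341376, minus strand), which fell with knockdown, and for SPRED1 (chr15:38252586-38252835, plus strand), which rose with R1881. Each holds the 250 bases before the annotated gene start, 5′ to 3′ on the strand of the gene, with a match to CGGAAG or its complement CTTCCG in capitals.
PHLDA1: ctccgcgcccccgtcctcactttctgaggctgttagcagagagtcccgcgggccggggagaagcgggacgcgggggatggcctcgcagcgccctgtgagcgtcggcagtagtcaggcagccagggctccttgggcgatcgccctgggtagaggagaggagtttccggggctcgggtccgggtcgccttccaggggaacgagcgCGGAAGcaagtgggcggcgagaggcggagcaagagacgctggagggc
SPRY2: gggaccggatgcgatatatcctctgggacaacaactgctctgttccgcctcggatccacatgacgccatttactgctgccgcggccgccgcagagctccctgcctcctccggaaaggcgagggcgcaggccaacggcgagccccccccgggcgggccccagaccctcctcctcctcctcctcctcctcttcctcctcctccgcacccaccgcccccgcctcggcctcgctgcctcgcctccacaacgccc
SPRED1: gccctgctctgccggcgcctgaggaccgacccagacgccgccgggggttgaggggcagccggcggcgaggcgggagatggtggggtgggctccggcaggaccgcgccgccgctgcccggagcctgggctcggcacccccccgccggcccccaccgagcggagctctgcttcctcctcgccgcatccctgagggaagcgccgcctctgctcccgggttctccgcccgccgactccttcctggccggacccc
The PHLDA1 stretch held CGGAAG once, its first base 47 bases before the gene start, and those of SPRY2 and SPRED1 held neither form. The shorter ETS core that the paper gives, GGAA or GGAT, was neither marked nor counted. It does occur in the SPRY2 and SPRED1 stretches, so these do not lack an ETS core. CGGAAG or its complement was also found 62 bases before the start of DUSP6 and 66 bases before 1 of the SPRY1 starts. These genes were not called with knockdown. Of 35116 stretches of the same length in the table, 16.5% held CGGAAG on either strand. Each match is a description of the sequence and not a binding site.

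ETV4 and ETV5 are ETS factors of the PEA3 group, which ERK signalling induces. ETV4 ranged from 7.34 to 7.88 log2 and was called in none of the 9 comparisons, the smallest adjusted p being 0.0865 for 0.15 log2 higher in c42b than in LNCaP control cells. A second ETV4 probe, at a mean of 7.49 log2, correlated with the probe in use at r = 0.14. ETV5 read 7.20 and 7.07 log2 with vehicle and 6.83 and 6.91 with R1881 in EV cells of LNCaP, and 6.75, 6.63, 6.87 and 6.72 in NT cells, so that the sides overlapped. EV cells were higher by 0.26 log2 (SE 0.08, adjusted p = 0.0437). The call was lost without replicate 2 of NT cells with R1881 (adjusted p = 0.171), replicate 2 of NT cells with vehicle (0.152), either EV replicate with R1881 (0.0635 and 0.136) or replicate 1 of EV cells with vehicle (0.153). In c42b the difference was 0.26 as well and lay just outside the threshold (adjusted p = 0.0503), and the difference between the lines was -0.01 (95% interval -0.25 to 0.24). All ETV5 samples lay below background. A second ETV5 probe, at a mean of 6.86 log2, correlated with the probe in use at r = -0.09 over the 32 samples, so that these differences rest on the probe in use.

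Over the 16 group means, the 45 pairs of members had a median Pearson r of 0.06, beside -0.000651 over all pairs of genes above background. The highest was 0.56, between SPRY1 and SPRED1, and the lowest -0.52, between DUSP4 and SPRED2. These group means share lines, vectors and arms, and in DUSP4, DUSP6, SPRY4 and ETV4 their spread was below the standard deviation within groups, which limits any correlation. Of the 10 genes, 6 lay below background.

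Beside the 10 genes, 67 further genes of the pathway were measured in 8 lists of receptors, ligands, adaptors with Ras and its inactivators, kinases, other phosphatases, other feedback inhibitors, other ERK-induced genes and other ETS factors. Each list held genes below background, and the share above it ran from 3 of 13 other ERK-induced genes to 4 of 5 kinases. With R1881, 2 of the 67 rose and 4 fell in LNCaP (median -0.01 log2), beside 1.65% and 1.32% of all genes, and 2 rose and 1 fell in c42b (median 0.02), beside 1.55% called in either direction. Both genes that rose, the same in either line, belonged to the list of 7 other feedback inhibitors, and both encode inhibitors of the epidermal growth factor receptor family. ERRFI1 rose by 1.80 log2 in LNCaP (adjusted p = 1.12e-14) and 1.54 in c42b (4.73e-13), and LRIG1 by 1.41 (7.3e-11) and 1.35 (1.82e-10). ERBB2, the receptor gene that fell in both lines, fell by 0.37 log2 in each (adjusted p = 0.0127 and 0.0141), 1 of 9 receptors. In LNCaP the early-response genes FOS and EGR1 fell by 1.60 and 1.30 log2 (adjusted p = 2.96e-12 and 3.69e-09), 2 of 13 ERK-induced genes, and the phosphatase gene DUSP1 by 0.76 (1.44e-06), 1 of 8 other phosphatases.

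In NT cells of LNCaP FOS averaged 6.78 log2 with R1881 and 6.91 with vehicle, EGR1 7.80 and 7.90, and DUSP1 9.42 and 9.70. In EV cells of LNCaP DUSP1 averaged 9.81 with R1881 and 11.06 with vehicle. FOS averaged 9.81 log2 in EV and 9.59 in GABPa cells of LNCaP with vehicle, and between 6.50 and 7.02 in the other 14 groups. EGR1 averaged 10.56 and 9.97 log2 in those vehicle groups and at most 8.13 elsewhere. EV cells of LNCaP accordingly exceeded NT cells in FOS by 1.43 log2 (adjusted p = 3.34e-12), EGR1 by 1.47 (2.47e-11), DUSP1 by 0.88 (9.59e-09) and the ligand gene HBEGF by 0.82 (1.07e-08). DUSP4 in LNCaP EV cells with vehicle, and the EV against NT calls of SPRED1, SPRY1, PHLDA1 and ETV5, come from the same samples, and the part of this in those results was not tested.

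Of the 67 genes, 8 were higher and none lower in EV than in NT cells of LNCaP, and 6 were higher and 3 lower in c42b, beside 11.9% and 18% of all genes called in either direction. LRIG1 and HBEGF were among the higher genes in both lines (0.61 and 0.82 log2 in LNCaP, 0.54 and 0.27 in c42b). The lower genes of c42b were FGFR3 (-1.20, adjusted p = 4.72e-11), DUSP2 (-1.03, 1.47e-09) and HRAS (-0.57, 1.52e-06). With knockdown 3 of the 67 rose in LNCaP and 2 in c42b, and none fell, beside 2.46% and 3.25% of all genes called in either direction. DUSP1 rose in both lines, by 0.39 log2 in LNCaP (adjusted p = 0.0174) and 0.42 in c42b (0.0081). DUSP2 (0.42, adjusted p = 0.016) and FGFR3 (0.38, 0.0369) rose in LNCaP, and the receptor gene ERBB3 (0.37, 0.0111) rose in c42b. FGFR3 lay below background there, at 7.36 log2 in shGA and 6.97 in NT cells of LNCaP. In DUSP1 of both lines and ERBB3 of c42b, shGA cells lay between the control vectors. DUSP1 averaged 9.56 log2 in NT, 9.95 in shGA and 10.44 in EV cells of LNCaP, and 9.17, 9.60 and 9.74 in c42b. ERBB3 averaged 10.54, 10.91 and 11.07 in c42b. DUSP2 and FGFR3 of LNCaP were higher in shGA cells than in both controls. In the cells labelled GABPa 0 of the 67 were called in either line, with 6 in LNCaP and 4 in c42b at an unadjusted p under 0.05. Between the lines 4 of the 67 were higher and 17 lower in c42b, beside 14.9% higher and 13.7% lower over all genes. Among these were MAPK3, the gene of ERK1 (-0.83, adjusted p = 4.03e-13), FOS (-0.82, 9.51e-11), DUSP2 (0.50, 6.99e-07) and FGFR3 (0.96, 6.47e-13). Among the 8 control groups FOS was high only in LNCaP EV cells with vehicle, as given above. DUSP2 averaged 8.98 and 9.37 log2 in NT cells of c42b, with vehicle and R1881, and between 8.05 and 8.23 in the other 6 control groups. The line differences were thus seen in EV cells for FOS and in NT cells for DUSP2.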

How the data were processed

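The authors deposited intensity values, linear bead summaries per probe after the spatial correction of beadarray (BASH and HULK), and a table of log2 values that they had quantile normalized. The 36 arrays held 47231 probes, 30113 of them annotated to 1 gene in the platform annotation, and 94 values were missing. Intensities were converted to log2, quantile normalized and averaged over the 4 repeat arrays, and were checked against the deposited log2 table (median absolute difference 0.000159). Array medians ran from 178.3 to 225 intensity units, and the number of arrays limits the precision (median SE 0.10 log2). A gene's value is that of its brightest probe by mean. A model of 1 mean per group was fitted over 32 samples in limma 3.58.1 (R 4.3.3).

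Adjusted p-values are Benjamini-Hochberg values over all probes, pooled for the 6 main comparisons, for the comparison of lines, for both EV against NT comparisons, for 6 interactions and for 4 further interactions. Under joint adjustment, a comparison with many changes eases the threshold for the others. The methods speak of biological triplicates for the arrays, whereas the labels give 2 numbered replicates a group and mark repeat arrays apart. Neither says that replicates were separate cultures, so the p-values reflect the spread of these samples alone, and that spread may be technical. Over all probes, differences between 2 arrays of 1 sample had an SD of 0.212 to 0.229 log2 in the 4 repeated samples. Differences to the other replicate of the group had an SD of 0.214 to 0.233. The p-values may therefore not cover variation between cultures. The fit was tested on simulated data. Alternatives covered a replicate block, normexp correction, median centring, the authors' log2 table, brighter probes, any probe of a gene, the adjustment, the threshold, repeat arrays, 1 line, arm or control vector at a time, and leaving out each sample.

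Named genes are the 10 members, up to 2 called genes with the smallest adjusted p per pathway list and comparison, the 2 genes most like each member above background, and check genes. Members and lists were chosen with earlier results of these data known. Group means of FOS, EGR1, DUSP1, DUSP2, C1QTNF9B and MAP3K20 were added after their values were seen. Some genes of the lists are not reported here.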

Additional observations from a re-analysis of the deposited data

Results flagged for a closer look

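The difference of PHLDA1 between EV and NT cells differed between the lines by -3.34 log2 (limma adjusted p = 5.3e-17), and was marked for a closer look because the same contrast ran in opposite directions in LNCaP and c42b by a test of that difference itself. EV cells were above NT cells in LNCaP and below them in c42b, with no overlap of the samples in either line. The value rests on 1 of the 2 PHLDA1 probes of the array, and the cause was not tested.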

How the results depend on the processing

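The numbers of members called in a comparison changed by over 1.5 times as follows. With normexp correction 1 was called for R1881 in LNCaP and 2 for EV against NT in c42b. With probes above background only, where fewer probes were tested, 1 was called for R1881 in c42b, 2 for knockdown in LNCaP, 1 for knockdown in c42b, 2 for the R1881 response by line and 1 for that response by control vector in LNCaP. For EV against NT in c42b 2 were called with adjustment within each comparison, with an adjusted p under 0.1 and without the repeat arrays, the added gene being ETV5 each time. An adjusted p under 0.1 also gave 1 for R1881 in c42b, and a separate fit for each line gave 2 for EV against NT in LNCaP. With R1881 alone knockdown gave 0 in LNCaP and 1 in c42b, and EV against NT gave 1 in LNCaP. With vehicle alone knockdown gave 0 in c42b and EV against NT gave 2 in LNCaP. EV cells alone and NT cells alone each gave 1 for R1881 in LNCaP. With 1 sample left out the count for c42b against LNCaP ran from 2 to 3, which is within 1.5 times. Other counts then ran from 1 to 2 for R1881 in LNCaP, and from 1 to 2 for knockdown and for EV against NT in c42b. They ran from 2 to 3 for EV against NT in LNCaP, and from 0 to 1 for the R1881 response by line. The added call in the last case was DUSP4 without replicate 2 of the EV cells of c42b with R1881 (-0.66, adjusted p = 0.0373). PHLDA1 between the lines was reversed with EV cells alone (-1.39 log2). The cause of these changes was not tested.

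Called members that lost their call under other settings included DUSP4 with normexp correction (0.62 log2, adjusted p = 0.0611), EV cells alone (0.61, 0.0982) or NT cells alone (0.36, 0.566), PHLDA1 under knockdown with R1881 alone (-0.49, 0.0529 in LNCaP and -0.49, 0.0518 in c42b) and with vehicle alone in c42b (-0.38, 0.229), SPRY2 under knockdown in c42b with vehicle alone (-0.39, 0.199), SPRED1 for EV against NT in LNCaP with R1881 alone (0.35, 0.0593) or vehicle alone (0.36, 0.0533), and SPRED2, SPRY1 and ETV5 under several. SPRY1 passed with probes above background only for R1881 and for knockdown in LNCaP (adjusted p = 0.0304 and 0.0317) and for the R1881 response by line (0.0259). Deviations of same-numbered samples had a median r of 0.003 in LNCaP (highest 0.18), with 2 of 28 pairs of groups over 0.1. In c42b the median was -0.05 (highest 0.23), with 5 of 28 over 0.1. These values cannot decide whether same-numbered samples were paired, since array noise would lower them. With the replicate block, 2 members were called for R1881 in LNCaP, 1 and 2 for knockdown in LNCaP and c42b, 4 and 1 for EV against NT, and 2 for c42b against LNCaP, where SPRED2 was lost (-0.21, adjusted p = 0.0747). Median centring moved the split of all genes called, from 254 higher and 240 lower to 124 and 241 for knockdown in LNCaP, from 344 and 307 to 178 and 296 in c42b, from 22 and 8 to 8 and 12 for GABPa against EV in c42b, from 1921 and 1689 to 1248 and 1905 for EV against NT in c42b, and from 587 and 579 to 312 and 597 for that difference by line. Of the 10 genes, 6 lie below background, which limits the size of a difference that can be seen.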
